A study of Mus musculus with 4 samples.

Results

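Catalase, the 6 peroxiredoxins, thioredoxin 1, thioredoxin reductase 1 and sulfiredoxin 1 are enzymes and partner proteins that remove hydrogen peroxide or keep the enzymes that do so working. These 10 genes (Cat, Prdx1 to Prdx6, Txn1, Txnrd1 and Srxn1) were chosen by name, with earlier results of these data known. They were all found among the 40213 gene symbols of the deposited tables. All 10 also passed the filter on low values that left 11588 genes tested. The tables came from RNA sequencing of RAW264.7 cells, a mouse macrophage line, after 48 h with CuNZ@Gel (2 libraries) or with Gel (2 libraries). The groups were taken from the sample titles, CuNZ is not spelled out in the labels, and the treatment text names CuNZ@Gel alone, so that what Gel cells received is known from their titles only. All libraries came from the same unmodified line grown in plates. The labels do not say whether replicates were separate cultures, and the p-values therefore reflect library-to-library spread that could be technical. In such bulk samples, fewer cells of a type and less RNA per cell cannot be told apart. The comparison asks how CuNZ in the gel bears on peroxide-removing genes, by the compartment in which each protein works.

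Catalase splits hydrogen peroxide into water and oxygen inside peroxisomes. Peroxiredoxins instead reduce peroxide with a reactive cysteine, and most of them are then reduced by thioredoxin, which is in turn kept reduced by thioredoxin reductase at the expense of NADPH. When peroxide is in excess the reactive cysteine of the typical peroxiredoxins can be oxidised further and inactivated, and sulfiredoxin restores it with the use of ATP. Prdx1, Prdx2 and Prdx6 act mainly in the cytosol, as do Txn1, Txnrd1 and Srxn1, whereas Prdx3 acts in mitochondria, Prdx5 mainly in mitochondria but also in peroxisomes and cytosol, and Prdx4 in the endoplasmic reticulum (ER). In macrophages these enzymes meet the peroxide that follows the oxidative burst, and several of their genes are known targets of the transcription factor NRF2.

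Levels are given as scaled CPM, that is, CPM divided by 1 factor per library, and recovered library totals lay between 14736000 and 14886000 reads in CuNZ@Gel and between 13717000 and 14729000 in Gel. A log2 change is the CuNZ@Gel value minus the Gel value of log2(scaled CPM + 1), tested with limma and called at an adjusted p under 0.05. A gene said to rise or fall by a number, without the word fold, changed by that number on the log2 scale. RNA classes outside the 10 genes took different shares of the reads: the transcript Gm26917 took 7.14% in CuNZ@Gel and 11.8% in Gel, and 82 cytosolic ribosomal protein genes took 5.13% in CuNZ@Gel and 9.86% in Gel. Their part in the results below was not tested. Libraries of 1 group correlated at a Pearson r of 0.995 across genes in both groups, and pairs from different groups at 0.930 to 0.938; genes are not independent replicates. Of 10 macrophage markers 9 were tested, and their summed level was 8924 to 9164 scaled CPM in CuNZ@Gel and 5665 to 5833 in Gel, most of it from the lysozyme gene Lyz2 (5888 in CuNZ@Gel and 3080 in Gel). Of these 9, 6 rose and 2 fell, Fcgr1 by 0.82 and Cd68 by 0.23, the fall of Cd68 turning to 0.05 after a length and GC correction. The 7 erythroid markers summed to 0.504 to 0.698 scaled CPM in CuNZ@Gel and 0.290 to 0.545 in Gel, with the heme synthesis gene Alas2 at 0 in all 4 libraries. The 5 endothelial markers summed to 9.77 to 9.90 scaled CPM in CuNZ@Gel and 2.25 to 2.73 in Gel, and 2 of them, Vwf and Pecam1, were tested. Vwf rose by 1.29, with 7.21 scaled CPM in CuNZ@Gel and 2.37 in Gel. Pecam1 had 1.80 scaled CPM in CuNZ@Gel and 0.0751 in Gel, which is under the value of 3 reads. It passed the filter only through CuNZ@Gel, so the direction of its change (1.37) was set by the filter. The lists for fibroblasts, epithelium, T and B cells and neutrophils each summed to at most 1.87 scaled CPM in any library. The part of these markers in the results was not tested.

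Of the 10 genes, 6 rose in CuNZ@Gel, 3 fell and 1 did not pass the test, against 67.1% of all genes called in either direction. The 3 falls were small and did not pass with scaling by total reads only. The median log2 change of the 10 was 0.55. Among all genes tested, 32.2% rose and 34.8% fell, with a median of -0.03, so the share that fell was near the background and a call alone says little in this comparison. A test against a minimum fold of 1.5 called 16.9% of all genes, with 8.76% raised and 8.11% lowered. By that test 5 of the 10 genes were raised (Cat, Prdx1, Srxn1, Txnrd1 and Prdx5) and 0 were lowered, also at an unadjusted p under 0.05. Because the genes were chosen with earlier results of these data known, their distance from the background is a description and not independent evidence. Without the minimum fold, limma and limma-voom each called 3 lowered. The ranges of CuNZ@Gel and Gel were separate for 9 of the 10 genes, and for 83.2% of all genes tested.

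**Figure D1:**
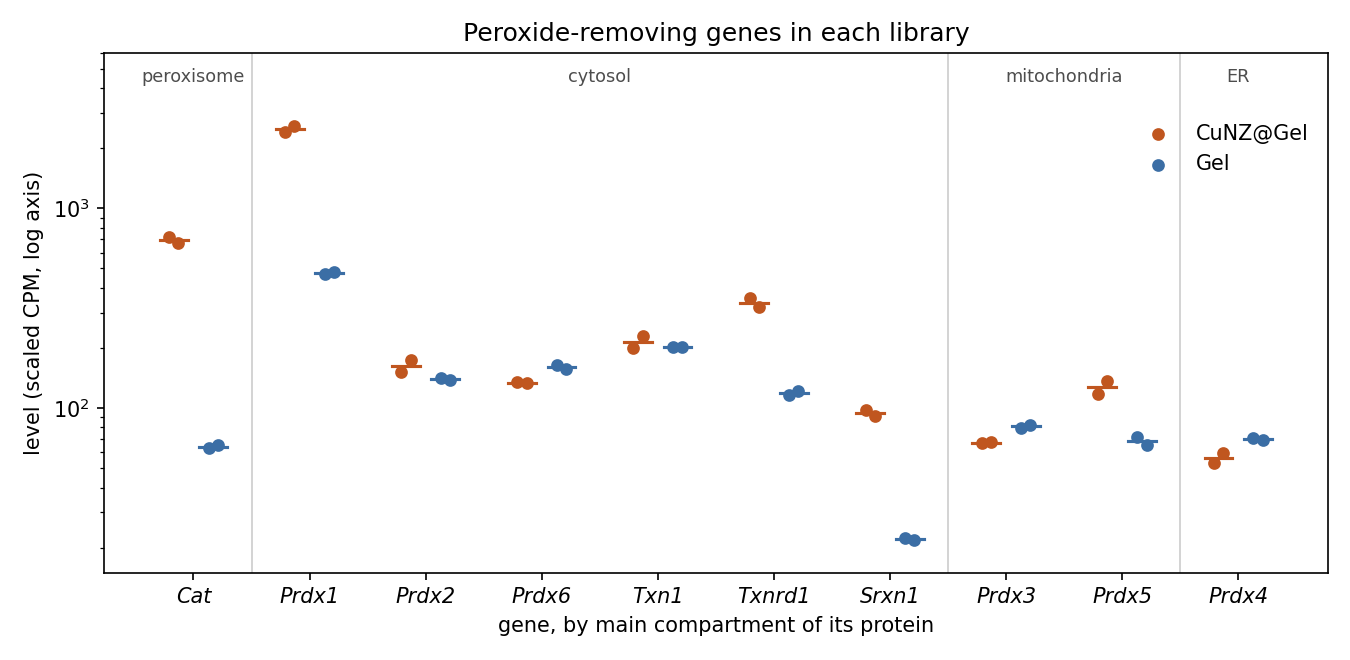
Level of each gene in each of the 4 libraries, in scaled CPM on a log axis, with points for libraries, bars for group means and genes ordered by the main compartment of their protein. Cat lies at 669 and 717 scaled CPM in CuNZ@Gel, against 63.3 and 65.1 in Gel, while the points of Txn1 overlap between the groups.

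Cat, the peroxisomal catalase (ENSMUSG00000027187.10 in GENCODE vM21, chromosome 2), had the largest change of the 10. Its level was 717 and 669 scaled CPM in the CuNZ@Gel libraries, on 11382 and 10548 reads, and 63.3 and 65.1 scaled CPM in the Gel libraries, on 874 and 836 reads. Both CuNZ@Gel libraries lay far above both Gel libraries. The means were 693 ± 33.7 and 64.2 ± 1.25 scaled CPM (SD, n = 2 each), a 10.8-fold difference, and the log2 change of 3.41 ± 0.06 (SE) had rank 19 from the highest among all tested genes (limma adjusted p = 2.49e-20).

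Among the cytosolic peroxiredoxins only the most abundant one moved strongly. Prdx1 (ENSMUSG00000028691.12, chromosome 4) stood at 2406 and 2575 scaled CPM in CuNZ@Gel, against 470.5 and 478.7 in Gel, with no overlap. Its log2 change was 2.39 ± 0.06, from means that differed 5.25-fold (limma adjusted p = 4.44e-18). Prdx2, a close relative of Prdx1 that also works through a pair of cysteines, was measured at 151 and 173 scaled CPM in CuNZ@Gel and at 141 and 139 in Gel. Its rise of 0.21 ± 0.07 on the log2 scale passed the test at an adjusted p of 0.0123, but its 95% interval reached only 0.36, and it did not pass without either replicate 2 (0.20 without that of Gel, 0.11 without that of CuNZ@Gel). Prdx6, which has a single catalytic cysteine and is reduced by glutathione rather than by thioredoxin, fell slightly: it had 136 and 133 scaled CPM in CuNZ@Gel, against 165 and 156 in Gel. The log2 change of Prdx6 was -0.26 ± 0.06 (adjusted p = 0.00150), and its copy Prdx6b was listed at 0 in every library.

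The enzymes that serve the cytosolic peroxiredoxins were raised unequally. Srxn1, which repairs over-oxidised peroxiredoxins, had 98.2 and 91.5 scaled CPM in CuNZ@Gel and 22.2 and 21.9 in Gel, a 4.30-fold difference of the means and a log2 change of 2.05 ± 0.08 (limma adjusted p = 1.19e-14). Txnrd1, the cytosolic thioredoxin reductase and a selenoprotein, was at 356 and 319 scaled CPM in CuNZ@Gel, against 116 and 122 in Gel. Its means differed 2.84-fold, with a log2 change of 1.497 ± 0.066 (adjusted p = 4.44e-14). For both enzymes the CuNZ@Gel libraries lay above the Gel libraries with a wide gap. Txn1, the thioredoxin that carries electrons from Txnrd1 to the peroxiredoxins, was measured at 199 and 228 scaled CPM in CuNZ@Gel and at 202 and 203 in Gel. The Gel values of Txn1 lay between those of CuNZ@Gel, and its log2 change of 0.08 had a 95% interval from -0.07 to 0.22 (adjusted p = 0.330), which leaves room for a small change. Without CuNZ@Gel replicate 2 the change of Txn1 was -0.023, and without CuNZ@Gel replicate 1 it was 0.175 (adjusted p = 0.0453).

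In mitochondria the 2 peroxiredoxins moved in opposite directions, although the fall of Prdx3 did not pass with total reads only or after the length and GC correction. Prdx5, an atypical peroxiredoxin, was at 118 and 137 scaled CPM in CuNZ@Gel, against 71.8 and 65.5 in Gel. Its means differed 1.86-fold and its log2 change was 0.88 ± 0.08 (limma adjusted p = 3.51e-09; adjusted p = 0.00480 against a minimum fold of 1.5). Prdx3, the typical mitochondrial peroxiredoxin, had 66.6 and 67.5 scaled CPM in CuNZ@Gel and 79.5 and 82.6 in Gel, with a log2 change of -0.27 ± 0.07 (adjusted p = 0.00282). The 95% intervals of these changes were 0.72 to 1.05 for Prdx5 and -0.42 to -0.12 for Prdx3. In the ER, Prdx4, which takes up peroxide made during oxidative protein folding, was at 53.4 and 59.3 scaled CPM in CuNZ@Gel, against 70.5 and 68.9 in Gel. Its log2 change was -0.30 ± 0.08 (adjusted p = 0.00204), close to that of Prdx3 and Prdx6, whose intervals overlapped with it.

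The order of the changes from the top was Cat, Prdx1, Srxn1, Txnrd1 and Prdx5, and the 95% interval of each of these 5 lay clear of the next. The next below was Prdx2, whose interval overlapped with that of Txn1 beneath it. Prdx6, Prdx3 and Prdx4 formed the low end, with overlapping intervals between -0.47 and -0.12. The small changes depended on how libraries were scaled. With scaling by total reads only, the median log2 change of all genes moved by 0.18, raised genes made up 63.7% of all calls in place of 48.1%, and Prdx3, Prdx4 and Prdx6 no longer passed (-0.08, -0.12 and -0.07), while Txn1 rose (0.26, adjusted p = 0.00221). Longer transcripts had higher log2 changes across tested genes (Pearson r of 0.274 with log2 length; genes are not independent replicates), and after a correction of each library for length and GC content Prdx3 and Prdx4 did not pass (-0.13 and -0.11) and Txn1 rose by 0.27 (adjusted p = 1.74e-04). The 5 large rises passed under every alternative tried.

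**Figure D2:**
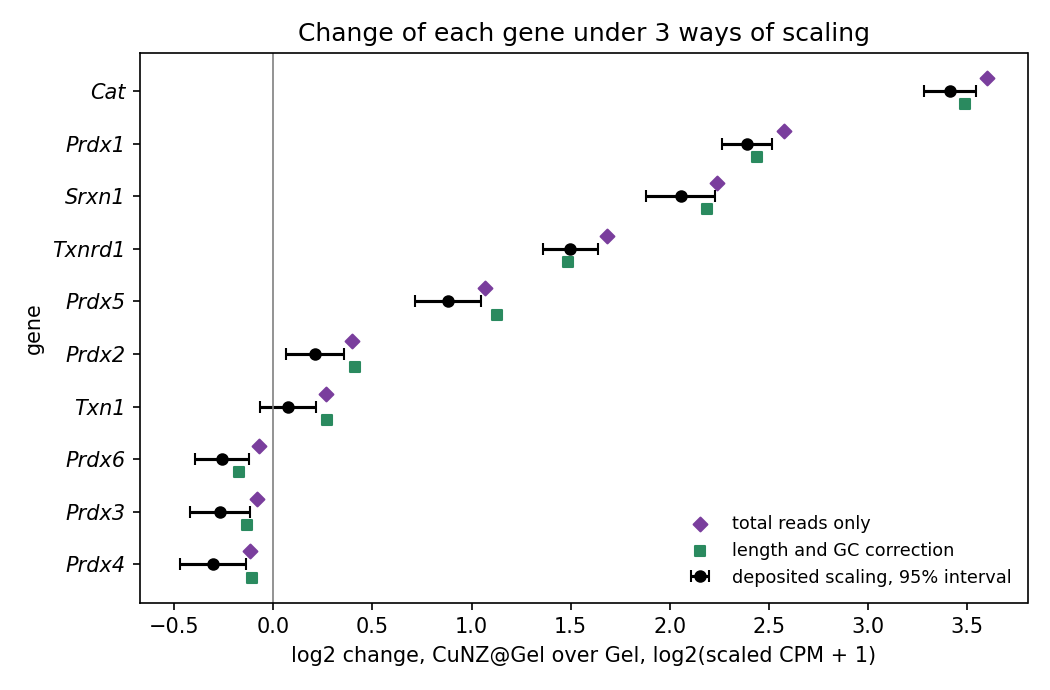
Log2 change of each gene, CuNZ@Gel over Gel, on the log2(scaled CPM + 1) scale: circles with 95% intervals for the deposited scaling, diamonds for scaling by total reads only and squares for the length and GC correction. The 5 genes from Cat (3.41) to Prdx5 (0.88) stay above 0.7 under all 3, while Prdx3, Prdx4 and Prdx6 lie between -0.30 and -0.07.

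Exon overlap and near-identical copies limit some of these levels. In GENCODE vM21, exons of Prdx2 overlap those of Junb and Rnaseh2a on the opposite strand, and exons of Prdx5 overlap Trmt112 on the opposite strand. The use of strand in counting is not given in the sources used here, so that reads from such pairs might be shared. Junb, an AP-1 transcription factor, had 50.5 ± 3.53 scaled CPM in CuNZ@Gel and 88.3 ± 0.832 in Gel, and Rnaseh2a, a subunit of ribonuclease H2, had 16.3 ± 0.229 in CuNZ@Gel and 38.8 ± 7.89 in Gel. Trmt112, a cofactor of methyltransferases, had 60.7 ± 3.24 in CuNZ@Gel and 152 ± 4.72 in Gel. All 3 fell (-0.79, -1.19 and -1.31), the opposite direction to Prdx2 and Prdx5, and their part in the values of these genes was not tested. Prdx1, Prdx2, Prdx6 and Txn1 have pseudogenes in RefSeq whose share of reads in the authors' counting is not known, which makes their levels uncertain to that extent.

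Within each library, the make-up of the peroxiredoxin transcripts does not depend on the scaling between libraries. Per kilobase of the longest transcript, Prdx1 made up 77.3% and 76.9% of the summed peroxiredoxin level in the CuNZ@Gel libraries, against 39.5% and 40.5% in the Gel libraries. With the shortest principal transcript as the length, these shares were 87.9% and 87.6% in CuNZ@Gel and 59.1% and 60.2% in Gel, so the level of the share rests on the transcript assumed while the gap between the groups remains. The other 5 each took a smaller share in CuNZ@Gel: Prdx2 took 7.14% ± 0.320 in CuNZ@Gel and 16.8% ± 0.0835 in Gel, and Prdx4 took 3.90% ± 0.0895 in CuNZ@Gel and 13.2% ± 0.145 in Gel (SD, n = 2 each). Prdx5, whose own level rose by less than the sum, took 4.95% ± 0.269 of the sum in CuNZ@Gel and 7.27% ± 0.431 in Gel. The shares of a library add up to the whole, so a gene that rose less than the sum had to take a smaller share. The summed peroxiredoxin level was 1409 ± 73.1 scaled CPM per kilobase in CuNZ@Gel and 517 ± 2.79 in Gel, a 2.73-fold difference. That difference was 3.57-fold with the shortest principal transcript as the length and 3.05-fold without division by length. With 2 libraries against 2, an exact two-sided permutation test cannot give a p below 0.333, and it gave that value for each of the 27 shares, sums and ratios compared.

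**Figure D3:**
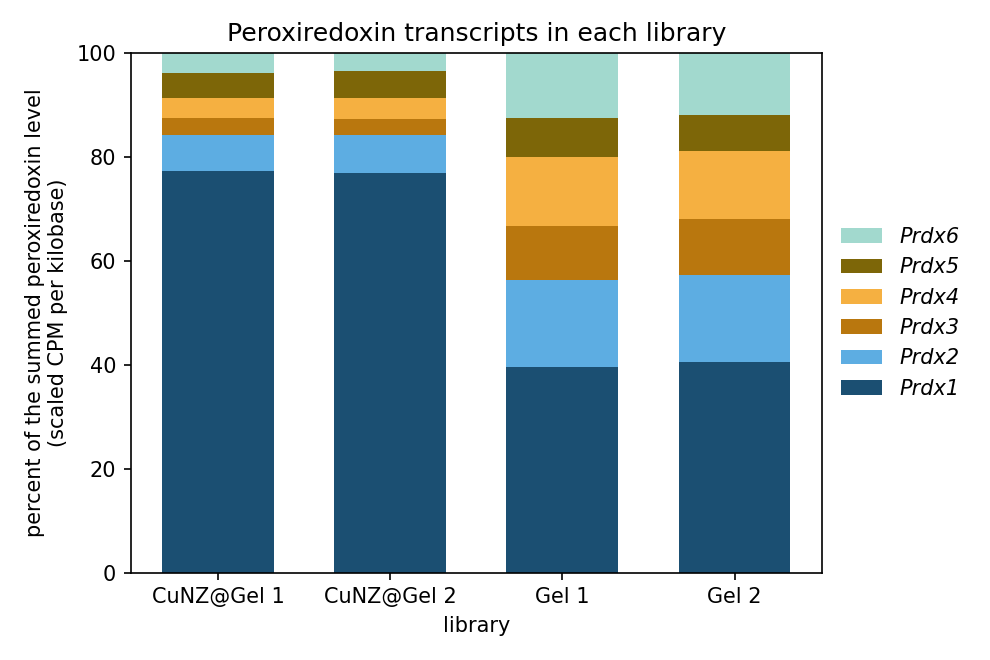
Share of each of the 6 peroxiredoxins in the summed peroxiredoxin level of each library, in percent of scaled CPM per kilobase of the longest transcript. The Prdx1 segment reaches 77.3% and 76.9% in the CuNZ@Gel libraries, against 39.5% and 40.5% in the Gel libraries.

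Ratios within a library showed which partners kept pace. The ratio of Txnrd1 to Txn1, in scaled CPM, was 1.79 and 1.40 in CuNZ@Gel, against 0.574 and 0.602 in Gel, and that of Prdx1 to Txn1 was 12.1 and 11.3 in CuNZ@Gel, against 2.33 and 2.36 in Gel. Both the enzyme upstream of thioredoxin and the peroxidase downstream of it were thus higher relative to Txn1 in CuNZ@Gel. Srxn1 relative to the sum of its possible substrates Prdx1 to Prdx4 was 0.0367 and 0.0318 in CuNZ@Gel and 0.0292 and 0.0285 in Gel, a 1.19-fold difference of the means that is small beside the 4.30-fold difference of Srxn1 itself. Cat relative to the 6 peroxiredoxins together was 0.245 and 0.213 in CuNZ@Gel, against 0.0634 and 0.0657 in Gel. None of these ratios overlapped between the groups, but neither did the levels of 83.2% of all genes tested. Each exact permutation p was 0.333.

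Levels of different genes were compared per kilobase of the longest transcript. In CuNZ@Gel the order from the top was Prdx1 at 1086 scaled CPM per kilobase, Cat at 265, Txn1 at 203, Prdx2 at 101, Txnrd1 at 93.2, Prdx5 at 69.9, Prdx4 at 55.0, Prdx6 at 52.5, Prdx3 at 45.4 and Srxn1 at 33.7. The library ranges of the neighbours Prdx2 and Txnrd1 overlapped there, as did those of Prdx4 and Prdx6. In Gel the order was Prdx1 at 207, Txn1 at 192, Prdx2 at 86.8, Prdx4 at 68.0, Prdx6 at 62.8, Prdx3 at 54.8, Prdx5 at 37.6, Txnrd1 at 32.8, Cat at 24.6 and Srxn1 at 7.85, with no overlap of library ranges between neighbours. Cat was therefore at place 2 in CuNZ@Gel and place 9 in Gel, and Txnrd1 at place 5 in CuNZ@Gel and place 8 in Gel. For Prdx1 the principal transcripts ran from 877 to 2294 bases, so its distance from Txn1 in Gel depends on the length assumed. The longest and the shortest principal transcripts also differed for Prdx5 (1826 and 1262 bases), Txnrd1 (3622 and 2297) and Prdx2 (1612 and 1175). The places of these genes and the lack of overlap in Gel therefore rest on the longest transcript.

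The 4 genes with the largest changes all rose, and their upstream sequences are shown to let the start regions be compared. RefSeq promoter windows (build GRCm38.p6, which is not the GRCm39 build named in the submitters' processing notes) matched 9 of the 10 genes by symbol, in 11 windows. Of the 3 windows of Txnrd1 the one with a match is printed. Each run gives the 250 bases before the annotated start, read 5′ to 3′ on the strand of the gene. Capitals mark matches, on either strand, to TGACNNNGC, the core of the antioxidant response element bound by NRF2 and its small MAF partners, and to TGANTCA, the AP-1 core, which can overlap it.
Prdx1, chr4:116685349-116685598, plus strand: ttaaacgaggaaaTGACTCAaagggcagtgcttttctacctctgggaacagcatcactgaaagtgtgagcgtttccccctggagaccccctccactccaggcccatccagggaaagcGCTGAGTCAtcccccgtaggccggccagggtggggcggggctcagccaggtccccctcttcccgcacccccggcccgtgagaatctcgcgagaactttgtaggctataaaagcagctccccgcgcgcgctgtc
Srxn1, chr2:152105274-152105523, plus strand: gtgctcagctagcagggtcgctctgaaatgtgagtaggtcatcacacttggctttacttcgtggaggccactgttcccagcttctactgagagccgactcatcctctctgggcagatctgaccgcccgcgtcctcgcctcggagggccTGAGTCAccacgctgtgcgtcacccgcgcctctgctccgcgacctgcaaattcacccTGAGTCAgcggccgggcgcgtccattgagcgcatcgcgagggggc
Txnrd1, chr10:82858956-82859205, plus strand: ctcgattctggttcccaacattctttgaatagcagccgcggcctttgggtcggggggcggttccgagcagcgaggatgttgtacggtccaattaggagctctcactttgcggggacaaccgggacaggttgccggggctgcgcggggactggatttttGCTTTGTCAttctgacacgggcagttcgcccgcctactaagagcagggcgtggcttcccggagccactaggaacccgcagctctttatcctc
Cat, chr2:103485154-103485403, minus strand: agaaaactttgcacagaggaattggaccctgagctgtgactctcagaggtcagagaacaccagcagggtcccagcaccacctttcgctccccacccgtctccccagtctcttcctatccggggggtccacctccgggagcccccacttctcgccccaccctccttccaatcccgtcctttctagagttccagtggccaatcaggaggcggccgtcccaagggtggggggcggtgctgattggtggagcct
The Prdx1 window held GCTGAGTCA, a TGACNNNGC match on the opposite strand 133 to 125 bases before the start, which overlaps a TGANTCA match, and a second TGANTCA match 237 to 231 bases before the start. The Txnrd1 window held GCTTTGTCA, a TGACNNNGC match on the opposite strand 92 to 84 bases before the start, while the other 2 windows of Txnrd1 held neither motif. Srxn1 had TGAGTCA at 102 to 96 and at 45 to 39 bases before the start and no TGACNNNGC. The nearer match is followed by gc, so it differs from TGACNNNGC only in the base after TGA. Looser forms of the motif were not searched. Cat had neither motif in this window. Of all 32851 promoter windows of this length, 10.2% held TGACNNNGC and 6.75% held TGANTCA, and 2 of the 11 windows of the present genes held each. The matches describe these letters only and show nothing of binding.

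Around the 10 genes, the other parts of the thioredoxin system did not move as a group. Of 20 tested members of a list of 23 other genes of the thioredoxin system, sestrins and thioredoxin-like proteins included, 5 rose and 7 fell, with a median log2 change of -0.01; scaling by total reads only gave 9 and 4. Txn2, the mitochondrial thioredoxin, was at 84.5 ± 3.48 scaled CPM in CuNZ@Gel and 86.2 ± 3.42 in Gel (log2 change -0.03, adjusted p = 0.752; 0.16 with total reads only, which did not pass). After the length and GC correction Txn2 rose by 0.18 (adjusted p = 0.0183). Txnrd2, the mitochondrial reductase, fell to 19.8 ± 2.91 scaled CPM in CuNZ@Gel, against 30.4 ± 0.308 in Gel (log2 change -0.60, adjusted p = 6.87e-05), so that Txnrd1 and Txnrd2 changed in opposite directions and their ratio within a library was 17.3 ± 3.83 in CuNZ@Gel, against 3.91 ± 0.186 in Gel. Txnip, which binds and inhibits reduced thioredoxin, fell by 0.37. Tmx3 and Tmx4, membrane-bound thioredoxin-like proteins of the ER, rose by 0.42 and 0.74, and Txnl4b, a spliceosome-related thioredoxin-like protein, fell by 1.04.

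Other peroxisomal genes changed in both directions. Of 19 peroxisome biogenesis genes, all tested, 2 rose and 8 fell (median log2 change -0.23), or 5 rose and 6 fell with total reads only. Beside this list and the others named here, 32.2% of all genes tested rose and 34.8% fell. With total reads only, 5036 of all 11601 genes tested rose and 2869 fell. Pex10, Pex7 and Pex6, which serve import into the peroxisome matrix, fell (-0.88, -0.71 and -0.62), whereas Pex19, a chaperone of peroxisomal membrane proteins, rose by 0.57. Among 25 tested genes of peroxisomal enzymes and membrane proteins, 10 rose and 11 fell, with a median of 0.09, against 14 and 10 with total reads only (median 0.28). Idh1, an NADPH-producing isocitrate dehydrogenase of cytosol and peroxisomes, rose 2.75-fold. Acaa1a and Eci2, enzymes of fatty acid oxidation, fell (-0.87 and -0.81). The largest log2 change among these named peroxisomal genes was 1.45, that of Idh1, against 3.41 for Cat.

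The compartments of Prdx3, Prdx5 and Prdx4 were also mixed. Of 11 tested mitochondrial redox genes, 2 rose and 3 fell (median -0.07), against 4 and 2 with total reads only (median 0.12) and 2 and 5 after the length and GC correction (median -0.14); this list shares Txn2 and Txnrd2 with the thioredoxin list. Sod2, the mitochondrial superoxide dismutase that makes peroxide from superoxide, was at 95.6 ± 2.27 scaled CPM in CuNZ@Gel and 76.2 ± 5.10 in Gel (log2 change 0.32), but at 0.03 after the length and GC correction. Idh2, which supplies mitochondrial NADPH, fell to 61.0 ± 0.456 scaled CPM in CuNZ@Gel, against 178 ± 12.0 in Gel (-1.53). Aifm2, a ubiquinone reductase also called FSP1, was counted in this list although its protein is not confined to mitochondria. It rose by 0.56, but did not pass without Gel replicate 2 (0.31) or without CuNZ@Gel replicate 2 (0.48). Of 16 genes of oxidative folding in the ER, 6 rose and 5 fell (median 0.03), or 9 and 3 with total reads only. Ero1b, the oxidase that makes peroxide while forming disulfides, rose 1.79-fold. Pdia4 and Qsox1, which form disulfides, rose 1.44-fold and 1.76-fold. Erp29, an ER chaperone, fell to 0.47 of its Gel level (log2 change -1.08).

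Genes that make peroxide or remove it by glutathione were set beside them. Xdh, the xanthine dehydrogenase that can produce superoxide and peroxide, rose to 85.6 ± 3.40 scaled CPM in CuNZ@Gel, against 10.8 ± 0.301 in Gel, a 7.92-fold difference. Sod1, the cytosolic superoxide dismutase, fell by 0.31 on the log2 scale (-0.12 with total reads only, which did not pass). Paox, a polyamine oxidase that releases peroxide, fell to 0.37 of its Gel level (log2 change -1.21). That list of superoxide dismutases and peroxide sources had 3 of 7 tested genes raised and 3 lowered (median 0.18), or 4 and 1 with total reads only. Of 11 tested glutathione genes, 6 rose and 3 fell (median 0.71). Gclm and Gclc, which together form glutamate-cysteine ligase of glutathione synthesis, rose 13.6-fold and 2.11-fold, Gsr, which regenerates glutathione, rose 2.16-fold, and Glrx, a cytosolic glutaredoxin, rose 3.42-fold. The glutathione peroxidases Gpx1 and Gpx4 fell (-0.55 and -0.40), although Gpx4 was at 0.00699 after the length and GC correction. Among the peroxide-removing enzymes of the cytosol, Prdx1 and Gpx1 thus changed in opposite directions.

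Txnrd1 is a selenoprotein, and other selenoproteins changed in both directions. Of 8 tested in a list of others, 1 rose and 4 fell (median -0.18), or 1 and 2 with total reads only. Selenot, of the ER, rose by 0.53. Selenow fell to 8.77 ± 1.78 scaled CPM in CuNZ@Gel, against 42.2 ± 9.63 in Gel, Selenoh, a nuclear selenoprotein, fell by 0.76, and Selenoo, of mitochondria, fell by 0.40, which did not pass with total reads only (-0.22). Selenoproteins counted in other lists and named here after their values were seen include Selenos, of the ER membrane, Txnrd3, a thioredoxin reductase, and Msrb1, a methionine sulfoxide reductase, which rose by 0.47, 0.70 and 0.32. Txnrd3 was low, at 3.54 scaled CPM in CuNZ@Gel and 1.80 in Gel. Selenof and Selenom, counted with Selenos in the list of ER folding, did not pass (-0.11 and -0.07). The rise of Msrb1 did not pass without CuNZ@Gel replicate 2 (0.22) or without a filter on low values. Txnrd2, Gpx1 and Gpx4, which fell, are selenoproteins too. Of 11 genes of selenium supply and selenoprotein synthesis, 3 rose and 6 fell (median -0.39), or 4 and 4 with total reads only (median -0.22). Lrp8, a receptor that takes up selenoprotein P, rose 3.19-fold, and Secisbp2l, related to the factor that recodes the selenocysteine codon, rose 1.51-fold. Scly, which recovers selenium from selenocysteine, and the selenium-binding protein gene Selenbp1 fell (log2 changes of -0.71 and -1.765).

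The named regulators of NRF2 had smaller changes than Cat, Prdx1, Srxn1, Txnrd1 and Prdx5. Of 11 tested, 2 rose and 5 fell (median -0.22), against 4 and 1 with total reads only. Nfe2l2, which encodes NRF2, was at 169 ± 8.99 scaled CPM in CuNZ@Gel and 212 ± 17.3 in Gel (log2 change -0.33, adjusted p = 2.77e-04; -0.14 with total reads only, which did not pass). Keap1, its inhibitor, was at 35.3 ± 1.80 in CuNZ@Gel and 42.7 ± 2.80 in Gel (-0.27, adjusted p = 0.0130), and lost its call in several settings, among them total reads only (-0.08). Nfe2l1, a relative of NRF2, fell by 0.65, and Sqstm1, an autophagy receptor that can sequester KEAP1, rose by 0.31. Cul3, the ubiquitin ligase scaffold that works with KEAP1, rose by 0.26, but was at 0.06 after the length and GC correction and did not pass without Gel replicate 1 (0.20).

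**Figure D4:**
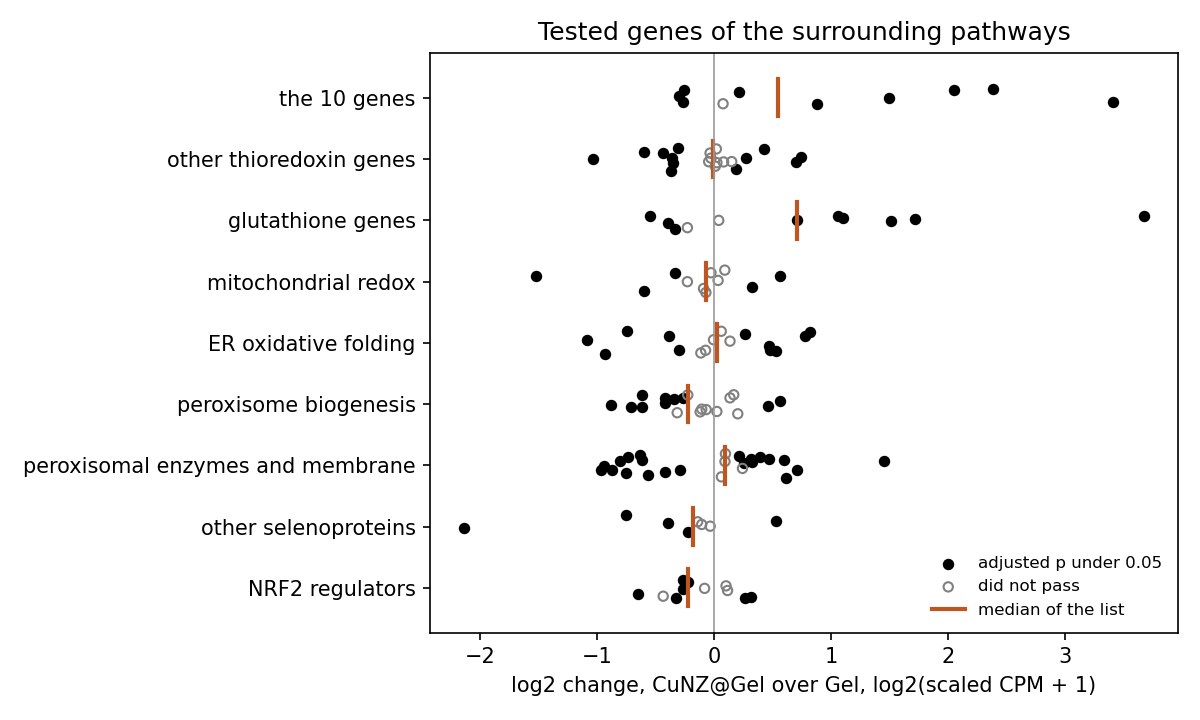
Log2 change, CuNZ@Gel over Gel, of each tested gene in the 10-gene set and in 8 surrounding lists; filled points passed at an adjusted p under 0.05, open points did not, and bars are medians. The 10 genes have a median of 0.55 and the glutathione genes 0.71, while the medians of the other 7 lists drawn lie between -0.23 and 0.09. Selenoprotein synthesis (-0.39), thioredoxin clients (-0.19) and superoxide and peroxide sources (0.18) are not drawn.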

How the data were processed

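The authors deposited 1 table per library with a log2 value for each gene symbol. The tools named, per the submitters' processing notes, are fastp, STAR, Salmon and GATK, with build GRCm39. Their versions and roles, strand use and the normalization were not given in the sources used here. The values showed that each deposited log2 value was log2(x + 1), with x the CPM divided by 1 factor per library (1.07 and 1.07 in CuNZ@Gel, 0.937 and 0.936 in Gel). Between 92.8% and 93.5% of the values up to 1 were whole multiples of the value of 1 read within 0.02 reads, which gave the reads and totals. The value of 3 reads, the limit a count of 0 allows, was 0.189 to 0.234 scaled CPM, and covers counting error only.

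A gene was tested where 2 or more libraries reached 1 scaled CPM. These genes were fitted with limma 3.58.1 in R 4.3.3 (variance trend, group only, all 4 libraries) on the deposited log2 values, whose pseudocount is 1; this understates changes of low genes. The Benjamini-Hochberg adjustment ran over all tested genes. The procedure was tested on simulated data in which few genes changed, up and down alike, with no length effect. That test therefore does not bear on the small changes that depended on scaling or on length. Alternatives were other scalings, pseudocount 0.1, no filter or a filter at 5 scaled CPM, limma-voom on recovered reads, a minimum fold of 1.5, replicate block, each library left out, and a length and GC correction from the longest transcripts of GENCODE vM21 (94.0% of tested genes matched); this build differs from that of the files.

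The members and lists were chosen with earlier results of these data known. From each surrounding list the text names up to 4 called genes, taken by smallest p where the higher group mean reached 5 scaled CPM, together with 10 partner genes (Txn2, Txnrd2, Txnip, Sod1, Sod2, Gpx1, Gpx4, Gsr, Nfe2l2 and Keap1) and genes whose exons overlap a member. For Cat, Prdx1, Srxn1 and Txnrd1, the 3 genes nearest by Euclidean distance between their centred log2 values were named, among genes whose mean over the 4 libraries reached 5 scaled CPM. Protein sequences were not used here, and some named-gene results are not reported here.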

Additional observations from a re-analysis of the deposited data

How the results depend on the processing

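Of the 10 genes, Cat, Prdx1, Srxn1, Txnrd1 and Prdx5 kept their direction and passed the test under each of 15 alternatives. Their log2 changes ranged from 3.36 to 3.60 for Cat, 2.34 to 2.58 for Prdx1, 2.00 to 2.24 for Srxn1, 1.42 to 1.69 for Txnrd1 and 0.77 to 1.13 for Prdx5. The size of the p-values was far less stable. For Cat the limma adjusted p ran from 6.14e-04 with no filter to 3.11e-304 with the replicate block. These p-values rest on a spread estimated across genes, so their size depends on the model. The number lowered was 3 in the deposited scaling, 0 with total reads only, 0 against a minimum fold of 1.5, 1 after the length and GC correction and 1 after that correction with the replicate block. Against the minimum fold, 1955 genes were called in all, in place of 7770. With 1 library left out, 5 to 7 of the 10 rose and 3 fell, all tested genes called numbered 6515 to 7064 and the share of calls raised was 47.5% to 48.4%. Prdx2 did not pass without a filter (0.21, adjusted p = 0.109), without CuNZ@Gel replicate 2 (0.11) or without Gel replicate 2 (0.20), and Txn1 lay between -0.023 and 0.175 when single libraries were dropped; the cause was not tested. With total reads only the rise of Prdx2 was 0.40, and after the length and GC correction it was 0.41.

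Same-numbered libraries deviated from their group means with a correlation of -0.116 over genes, and the labels give no pairing. With the replicate block 7489 genes were called and 6 of the 10 rose and 3 fell, as without it; the crossed block, chosen after seeing the data, called 8370. Among surrounding genes, Txn2 changed sign with total reads only (0.16), after the length and GC correction (0.18, with and without the block, where it passed), and with 1 library left out (-0.069 to 0.014), and Gpx4 was at 0.00699 after that correction with and without the block. With 2 libraries a group, small changes near 0.2 to 0.3 rest on few values.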

Other observations

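The patterns most like those of 4 of the genes were looked up by the distance between log2 values centred on each gene's mean, over 4 libraries and 9688 genes; with 4 libraries in 2 groups, such likeness is mostly a like size of change, and it says nothing of shared function. Nearest to Cat were Slc40a1, the iron exporter ferroportin (distance 0.166, 86.1 scaled CPM in CuNZ@Gel and 7.07 in Gel), Calr3 (0.175, 16.9 scaled CPM in CuNZ@Gel and 0.793 in Gel) and Ugt1a6a, a glucuronosyltransferase (0.190, 10.2 scaled CPM in CuNZ@Gel and 0.0783 in Gel, which is under the value of 3 reads). For genes at such low levels in Gel the likeness rests on the pseudocount of 1: with a pseudocount of 0.1 the log2 change of Ugt1a6a was 6.003 and that of Calr3 was 4.27, and with limma-voom they were 6.92 and 4.38, while Slc40a1 (3.59 and 3.60) and Cat (3.43 and 3.43) moved little. Ugt1a6a shares exons with its gene cluster, so that its level is uncertain. Nearest to Prdx1 were Rnf128, a ubiquitin ligase (distance 0.0355), Ptgr1, a prostaglandin and alkenal reductase (0.0733), and Gm34181 (0.0773). Gm34181 was at 2.10 scaled CPM in Gel, and its likeness also rests on the pseudocount. It changed by 2.84 with a pseudocount of 0.1 and by 2.88 with limma-voom, against 2.39 for Prdx1 in both. Nearest to Srxn1 were Ctnnal1 (0.0704), Plxna1, a semaphorin receptor (0.106), and Mgat5, a glycosyltransferase (0.110). The same limit holds for Ctnnal1, at 1.88 scaled CPM in Gel. Its change was 2.41 with a pseudocount of 0.1 and 2.45 with limma-voom, against 2.10 for Srxn1 in both. Nearest to Txnrd1 were Dock5, an activator of RAC (0.0101), Tubb2a, a beta-tubulin (0.0330), and the mitochondrially encoded ND4L (0.0392), which overlaps a neighbouring gene.

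Proteins that thioredoxin keeps reduced, or that are its known partners, changed in both directions: of 8 tested, 3 rose and 4 fell (median log2 change -0.19). With total reads only 3 rose and 3 fell (median -0.0061). Rrm2, the S-phase subunit of ribonucleotide reductase, was at 64.2 ± 2.39 scaled CPM in CuNZ@Gel and 45.3 ± 2.20 in Gel (0.49), while its p53-inducible counterpart Rrm2b was at 187 ± 23.7 in CuNZ@Gel and 280.1 ± 1.10 in Gel (-0.58). Msra, which repairs oxidised methionine, fell by 0.84, and Apex1, a DNA repair enzyme and redox partner of thioredoxin, fell by 0.575.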
